A study of Mus musculus with 6 samples.

Results

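Mpo, Ms4a3, Lcn2 and Cd177 are genes of the neutrophil lineage, and their response to growth hormone (GH) was followed in bone RNA of GH-deficient mice. They were chosen as every row of the value table that the platform annotation assigns to a single one of these symbols, which gave 6 of 21446 rows and 4 of 8973 named genes. Mpo had 3 rows and the others 1 row each, and all 6 rows held a value on all 6 arrays. The 4 genes had been selected on their 24-hour ratios, which passed an adjusted p of 0.05 in an earlier analysis of these files, so those ratios and any mean that holds them are given as a description with no test. Among other granulocyte genes, Mmp9 (24-hour log2 ratio -0.44) lay just inside that threshold and Stfa1 (-1.53) just outside it. The 6-hour ratios come from other animals and were tested, although the 24-hour arrays also enter the spread behind that test.

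Each array set bone RNA of GH-injected C57BL/6J-Ghrhr<lit> (lit/lit) mice, labelled with Cy5, against bone RNA of PBS-injected mice of the same strain, labelled with Cy3. All animals, the PBS controls too, lack a working receptor for growth hormone-releasing hormone, were 4 weeks old, and were injected once under the skin with either GH (4 mg per kg) or phosphate-buffered saline (PBS). Whether the marrow was left in the bones is not stated in the labels. Arrays 1 to 3 are the replicates taken 6 hours after injection and arrays 4 to 6 those taken 24 hours after it, and each channel held RNA pooled from 2 animals. Values are log2 ratios of GH over PBS, so a negative ratio means less signal in GH bone. The labels make that direction likely through the dye of each channel, without stating it, and no dyes were swapped, so a dye effect of a probe would add to every ratio. The arrays held 18302 to 19961 values, and their ratios had SDs of 0.466 (replicate 1) to 0.913 (replicate 6). Only ratios were deposited in the table used here, so the presence of bone or neutrophil markers could not be checked by level, and in bulk RNA fewer cells of a type and less RNA per cell cannot be told apart.

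Neutrophils are made in the bone marrow from granulocyte-monocyte progenitors, and they fill their granules in sequence as they mature. Azurophil granules, which hold myeloperoxidase and serine proteases, form at the promyelocyte stage. Specific granules, with lactoferrin and lipocalin 2, form at the myelocyte stage, and gelatinase granules form last. The transcription factors PU.1 and the C/EBP family drive these genes. Mpo encodes myeloperoxidase, which makes hypochlorous acid from hydrogen peroxide. Ms4a3 encodes a membrane protein of the MS4A family and marks granulocyte-monocyte progenitors in mice. Lcn2 encodes lipocalin 2, which binds bacterial siderophores and withholds iron. Cd177 encodes a surface and specific granule protein of neutrophils that is anchored by a lipid.

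The promoter windows of the 4 genes are printed because 3 of the genes had similar ratio profiles across the arrays. The windows run from 250 bases before to 50 bases after the start site in RefSeq on build GRCm38.p6, and all 4 genes were matched by symbol. That of Mpo lies at chr11:87793534-87793833 on the plus strand. Those of Ms4a3 (chr19:11640802-11641101), Lcn2 (chr2:32387690-32387989) and Cd177 (chr7:24760262-24760561) lie on the minus strand, and each is written 5′ to 3′ on the strand of its gene. Capitals mark matches to PU.1 (GAGGAA), C/EBP (TTNCNNAA), STAT5 (TTCNNNGAA) and the TATA box (TATAAA), searched on both strands.
Mpo: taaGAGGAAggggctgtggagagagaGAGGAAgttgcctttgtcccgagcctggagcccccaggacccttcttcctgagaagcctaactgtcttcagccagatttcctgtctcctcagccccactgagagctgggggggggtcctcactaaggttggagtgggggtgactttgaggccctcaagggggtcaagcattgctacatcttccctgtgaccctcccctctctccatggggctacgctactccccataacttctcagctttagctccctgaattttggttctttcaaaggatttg
Ms4a3: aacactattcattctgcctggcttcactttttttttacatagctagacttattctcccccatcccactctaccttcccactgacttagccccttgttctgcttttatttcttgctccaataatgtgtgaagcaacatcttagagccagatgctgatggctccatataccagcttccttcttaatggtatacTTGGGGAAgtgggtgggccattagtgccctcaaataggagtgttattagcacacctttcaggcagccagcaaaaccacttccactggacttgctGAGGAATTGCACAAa
Lcn2: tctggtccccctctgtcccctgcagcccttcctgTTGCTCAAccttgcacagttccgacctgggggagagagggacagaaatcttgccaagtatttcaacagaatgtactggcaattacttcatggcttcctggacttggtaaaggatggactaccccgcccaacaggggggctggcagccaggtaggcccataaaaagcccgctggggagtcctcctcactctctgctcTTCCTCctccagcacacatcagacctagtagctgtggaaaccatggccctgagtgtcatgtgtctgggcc
Cd177: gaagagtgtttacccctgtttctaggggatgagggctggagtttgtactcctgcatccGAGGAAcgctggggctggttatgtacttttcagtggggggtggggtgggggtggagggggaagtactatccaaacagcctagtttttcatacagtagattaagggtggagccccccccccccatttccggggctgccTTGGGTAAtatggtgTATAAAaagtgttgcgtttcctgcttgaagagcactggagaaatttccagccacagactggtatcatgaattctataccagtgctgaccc
The PU.1 letters were present in all 4 windows, at 2 places in Mpo, and in 28.3% of the 32851 windows of that table. The C/EBP letters were present in the Ms4a3, Lcn2 and Cd177 windows and in 40.7% of all windows. In the Ms4a3 window a PU.1 match and a C/EBP match adjoin without overlap, starting at bases 36 and 42 after the start site. The TATA letters were found only in the Cd177 window among the 4, starting 40 bases before the start site, and in 13.6% of all windows. The STAT5 letters were in none of the 4 windows and in 8.3% of all. These matches are a description of letters, not of binding.

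The 3 rows of Mpo disagreed with each other. Row 1 of Mpo had log2 ratios of -1.69, -0.94 and 0.084 at 6 hours and of -0.22, -1.51 and -0.89 at 24 hours. It was lowest on replicate 1, close to 0 on replicates 3 and 4, and its 6-hour and 24-hour arrays overlapped fully (means -0.85 ± 0.89 and -0.87 ± 0.65, SD, n = 3 each). Row 2 of Mpo stayed near 0, with -0.15, -0.044 and 0.34 at 6 hours and -0.044, 0.043 and 0.084 at 24 hours. Row 3 of Mpo had 0.52, -0.32 and -1.22 at 6 hours and -3.18, -0.97 and -1.29 at 24 hours. It was above 0 on replicate 1 alone and lowest on replicate 4, where 0.0352% of all rows had a lower ratio. On replicate 1, by contrast, 0.366% of rows lay below row 1 of Mpo and 90.1% below row 3.

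Averaged over its rows, Mpo had ratios of -0.44, -0.44 and -0.26 at 6 hours and of -1.15, -0.81 and -0.70 at 24 hours. The mean was thus below 0 on all 6 arrays, although no single row was. Every 24-hour array lay below every 6-hour array. The 6-hour mean was -0.38 ± 0.10 (SD, n = 3), a ratio of 0.768, and the 24-hour mean was -0.89 ± 0.23 (SD, n = 3), a ratio of 0.541. With the median in place of the mean over rows these became -0.13 and -0.69.

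Ms4a3, the progenitor gene, had log2 ratios of -0.14, -0.56 and -1.25 at 6 hours and of -2.00, -0.94 and -0.94 at 24 hours. It was below 0 on every array, and the times overlapped because replicate 3 lay below replicates 5 and 6. Its means were -0.65 ± 0.56 at 6 hours and -1.30 ± 0.61 at 24 hours (SD, n = 3 each), with a ratio of 0.407 at 24 hours.

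Lcn2, of the specific granules, had 0.11, -1.29 and -1.60 at 6 hours and -2.06, -0.79 and -1.47 at 24 hours. Only replicate 1 lay above 0, and replicate 5 was higher than 2 of the 3 arrays at 6 hours. The means were -0.92 ± 0.91 and -1.44 ± 0.64 (SD, n = 3 each), with a ratio of 0.369 at 24 hours.

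Cd177, the surface protein gene, had 0.15, -0.86 and -1.43 at 6 hours and -2.25, -0.79 and -1.25 at 24 hours. Again replicate 1 was the only array above 0 and replicate 4 the lowest. The means were -0.72 ± 0.80 at 6 hours and -1.43 ± 0.75 at 24 hours (SD, n = 3 each), with a ratio of 0.371 at 24 hours.

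**Figure D1:**
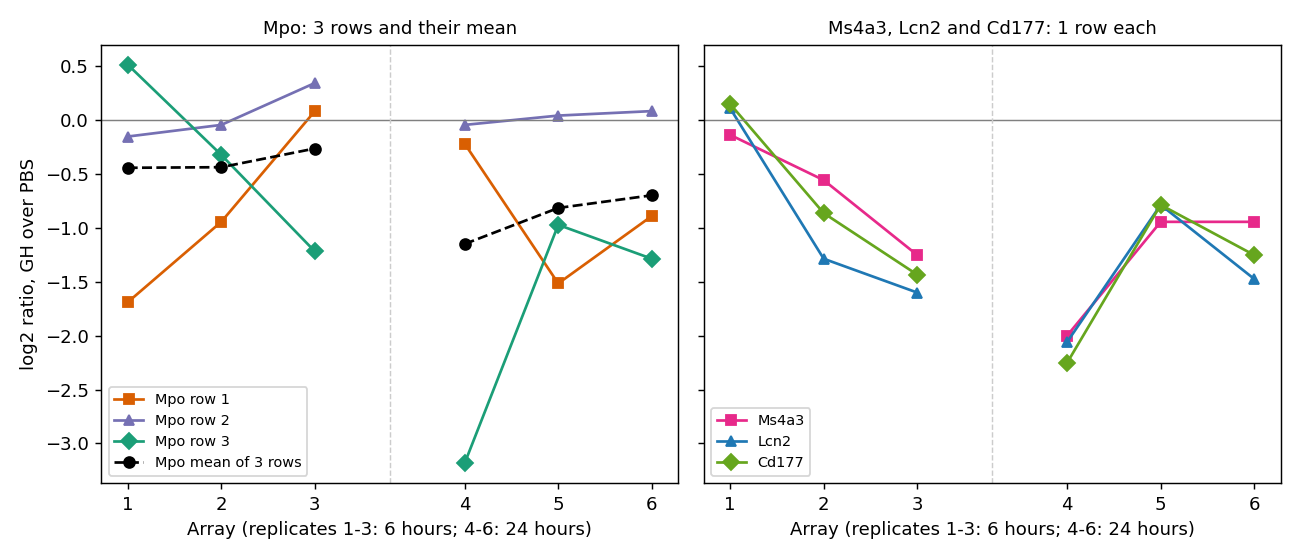
Log2 ratio of GH over PBS (vertical axis) on each of the 6 arrays (horizontal axis) for the 3 rows of Mpo and their mean (left) and for Ms4a3, Lcn2 and Cd177 (right). Each point is 1 array, and lines join arrays of 1 time only to guide the eye. Row 3 of Mpo, Ms4a3, Lcn2 and Cd177 were highest on replicate 1 and lowest on replicate 4, while row 1 of Mpo was lowest on replicate 1 at -1.69.

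At 6 hours, with limma fitted to all features, 0 of the 4 genes passed an adjusted p of 0.05, where 3.62% of 16678 features passed (0.702% as lower). Lcn2 came to -0.92 ± 0.37 (limma SE, n = 3 arrays, adjusted p = 0.175), Mpo to -0.38 ± 0.13 (adjusted p = 0.132), Ms4a3 to -0.65 ± 0.28 (adjusted p = 0.205) and Cd177 to -0.72 ± 0.37 (adjusted p = 0.261). At an unadjusted p under 0.05, 2 of the 4 (Mpo and Lcn2) would be called by limma, beside 26.6% of all features (11% as lower). Tested row by row, Mpo had -0.85 ± 0.37 (adjusted p = 0.202) in row 1, 0.050 ± 0.13 (adjusted p = 0.835) in row 2 and -0.34 ± 0.49 (adjusted p = 0.679) in row 3, where 3.38% of 19326 rows passed. Without replicate 1, whose ratios had the smallest SD of the 6 arrays and on which 3 of the 4 genes were closest to 0, Lcn2 passed as lower (-1.44, adjusted p = 0.0487, with 0.0218 to 0.602 over all alternatives), beside 9.09% of features (3.49% as lower). The other 3 did not pass without it, with -0.35 for Mpo, -0.90 for Ms4a3 and -1.15 for Cd177. Leaving out replicate 3 instead brought the 6-hour ratios to -0.59 for Lcn2, -0.35 for Ms4a3 and -0.36 for Cd177, against -0.44 for Mpo.

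At 24 hours, where the genes were chosen, 20.6% of all features passed (8.62% as lower), and nothing is read from the 4 genes' own calls. Among the 16678 features, 2.67% had a lower 24-hour mean than Lcn2, 3.58% a lower one than Ms4a3 and 8.45% a lower one than Mpo. The labels give the scan files of replicates 4 and 6 another prefix than those of the other arrays, and replicate 5 is the only 24-hour array that shares its prefix with the 6-hour arrays. On replicate 5 Lcn2 and Cd177 had -0.79, Ms4a3 had -0.94 and the Mpo mean had -0.81. These are all smaller in size than the ratios on replicate 4, and for Lcn2 smaller than its 6-hour mean of -0.92. Without replicate 4 the 24-hour means were -0.76 for Mpo, -0.94 for Ms4a3, -1.13 for Lcn2 and -1.02 for Cd177. The 24-hour minus 6-hour difference was -0.51 for Mpo, -0.65 for Ms4a3, -0.51 for Lcn2 and -0.71 for Cd177.

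The 4 genes differed in how much they varied between arrays. The SD between arrays of 1 time, pooled over both times, was 0.181 for the Mpo mean, 0.587 for Ms4a3, 0.776 for Cd177 and 0.786 for Lcn2, against a median of 0.312 over all features. Thus 22.4% of features varied less than the Mpo mean, while 82.3%, 92.1% and 92.5% varied less than Ms4a3, Cd177 and Lcn2. The SD of the Mpo mean was 0.230 times that of Lcn2. Its rows did not share this small spread, with SDs of 0.779 in row 1, 0.190 in row 2 and 1.05 in row 3. Row 1 was thus as variable as Cd177 and Lcn2 (SD ratios of 1.00 and 0.991), and row 3 was 1.33 times as variable as Lcn2. Rows 1 and 3 lay on opposite sides of their own time means on all 6 arrays, so that their deviations cancelled in part in the mean.

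Disagreement of this size was uncommon among genes with several rows. Of 379 genes with at least 3 complete rows, 91.0% had a smaller SD between their rows than Mpo (0.948 on the log2 scale averaged over the arrays, against a median of 0.545). Averaging divided the row SD of Mpo by 3.72, against a median of 1.61 over those genes, and 96.6% of them had a smaller factor. The limma standard error of Mpo (0.13, against 0.28 to 0.37 for the other 3 genes) rests on this average.

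**Figure D2:**
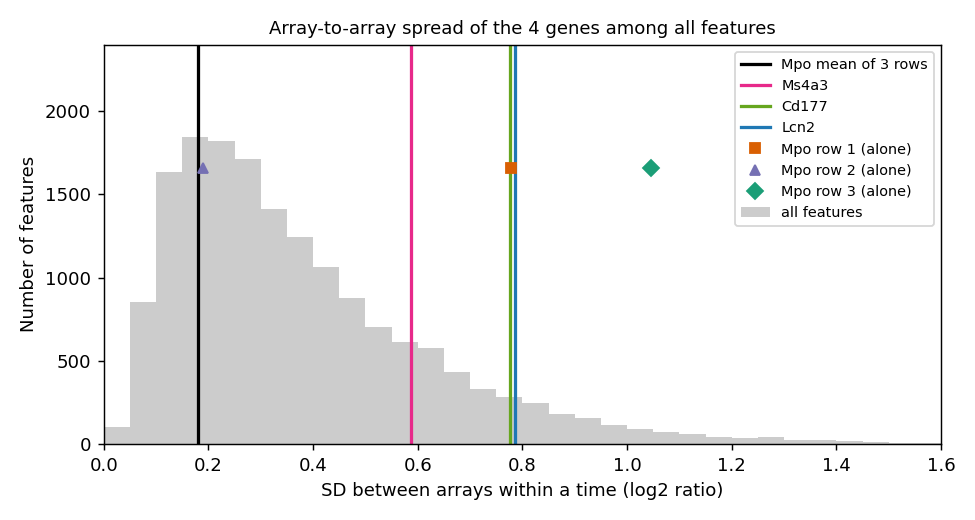
Number of features (vertical axis) by the SD between arrays of 1 time (horizontal axis, log2 ratio, bins of 0.05), with vertical lines for the Mpo mean, Ms4a3, Cd177 and Lcn2 and symbols for the 3 rows of Mpo alone, whose height has no meaning. The Mpo mean lies at 0.181, in the bulk of the features, while its rows 1 and 3 lie at 0.779 and 1.05, with or beyond Cd177 and Lcn2.

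Lcn2, Cd177 and Ms4a3 had similar ratios array by array, Lcn2 and Ms4a3 less closely than the other pairs. Likeness was measured as the root mean square difference of 2 genes' log2 ratios over the 6 arrays, and each gene was set against 8157 named genes with a value on every array. The gene most like Cd177 was Lcn2 (0.222 on the log2 scale), followed by Clca3a1, a member of the chloride channel accessory family, and by Ms4a3 (0.256). For Lcn2 the closest were Fgf13 (0.196), which encodes an intracellular FGF-related protein, then Cd177, then Serpinb1a (0.252), whose product inhibits the neutrophil serine proteases. Ms4a3 was closest to the immunoproteasome subunit gene Psmb8 (0.196), Clca3a1 (0.199) and Tfam (0.233), a mitochondrial DNA-binding protein gene, and Cd177 ranked 5 and Lcn2 34 for it. These genes were picked for likeness out of the whole table, all share the same 6 RNA pairs, and no test of the likeness is given. The members were also chosen on their ratios at the later time, and those ratios enter this measure. That choice favours likeness among the members, so their ranks for each other are a description only.

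The Mpo mean had other neighbours, the ciliary gene Rsph9 (0.160), Sdad1 (0.176) and Stard4 (0.177). Ms4a3, Cd177 and Lcn2 ranked 1791, 4241 and 5129 for it. In the other direction the Mpo mean ranked 269 for Ms4a3, 569 for Cd177 and 776 for Lcn2. Row 3 of Mpo, taken alone, was instead closest to Plac8 (0.265), a gene expressed in myeloid cells, to the stefin gene Stfa1 (0.413) and to Cd177 (0.479). On replicates 1 to 6 Plac8 had 0.56, -0.76, -1.36, -2.74, -0.94 and -1.36, highest and lowest on the same arrays as row 3 of Mpo. Row 1 of Mpo differed from Cd177 by 1.32 and from Lcn2 by 1.32 on this measure, and row 2 differed from them by 1.37 and 1.45.

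Other granulocyte genes were compared through 5 lists of granule, cytosol, oxidase, receptor and adhesion genes, of which 15 of 43 genes besides the members were measured. At 24 hours 2 of the 15 fell and 0 rose by limma, where 8.62% of all features passed as lower, too few calls to set the list apart. At an unadjusted p under 0.05 limma would call 8 of the 15, beside 40.5% of all features. The median 24-hour ratio of the 15 was -0.60, against 0.0033 over all features, and 13 of 15 were below 0, as were 49.8% of all features. Serpinb1a (0.15, -0.92 and -1.69 at 6 hours, -2.32, -0.97 and -1.84 at 24 hours) fell at 24 hours by limma (-1.71 ± 0.38, SE, n = 3, adjusted p = 0.0293). The gelatinase gene Mmp9 also fell (-0.44 ± 0.12, adjusted p = 0.0480), in its 2 rows alike (-0.46 and -0.42). This count was 0 without replicate 2, 4 or 6, after quantile normalization and with a term for the scan file prefix. It was 1 without replicate 3 or 5, after scaling to 1 median absolute deviation, with robust empirical Bayes, with 1 array per time allowed and with the time fitted alone, and 3 with array weights. It stayed at 2 without replicate 1.

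The granule and cytosol genes that did not pass included Ltf, the lactoferrin gene (-0.96 ± 0.37 at 24 hours, limma adjusted p = 0.106). Prtn3, the proteinase 3 gene (-0.60 ± 0.23, adjusted p = 0.0994), and Stfa1 (-1.53 ± 0.46, adjusted p = 0.0596) did not pass either. S100a9, which encodes a subunit of calprotectin, had -0.85, and Padi4, the enzyme that citrullinates histones, had -0.69. Ctsc, whose protease activates the neutrophil serine proteases, had 0.045, and its 2 rows lay on either side of 0 at 24 hours (0.47 and -0.38). All 4 measured NADPH oxidase genes were below 0 at both times without passing, with 24-hour ratios of -0.52 for Cybb, -0.68 for Cyba, -0.48 for Ncf4 and -0.73 for Rac2. Among receptors Csf3r, which receives granulocyte colony-stimulating factor, stayed near 0 as the average of 2 rows (-0.029 at 6 hours and 0.023 at 24 hours). Fcgr3 had -0.35 and Clec4e -0.16 at 24 hours.

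At 6 hours 0 of these 15 genes passed by limma, beside 3.62% of all features (0.702% as lower). At an unadjusted p under 0.05 limma called 1 (Clec4e, -0.41 ± 0.12, adjusted p = 0.100), beside 26.6% of all features. Of these 15 genes 13 were below 0, against 51.8% of all features. Their median was -0.35, against -0.016 over all features, and it was -0.49 without replicate 1, against 0.014.

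**Figure D3:**
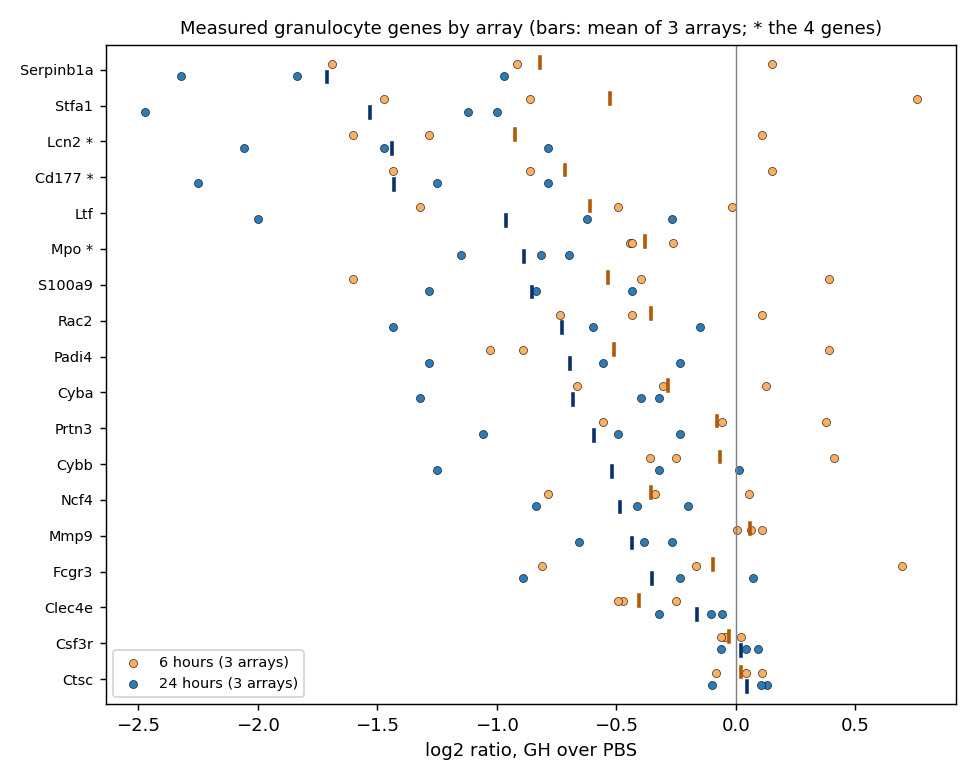
Log2 ratio of GH over PBS (horizontal axis) for the 15 other measured granulocyte genes and the members found in the same lists (Lcn2, Cd177 and Mpo, starred), ordered by their 24-hour mean. Points are arrays, orange for 6 hours and blue for 24 hours, and bars are means of 3 arrays. On replicate 1 of 6 hours 4 of the 15 genes lie below 0 and on replicate 4 of 24 hours 14 do. Csf3r and Ctsc stay close to 0 as averages of 2 rows each, and the rows of Ctsc lie apart (0.47 and -0.38 at 24 hours).

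The array order seen in the members recurred among these genes. Of the 6 member rows, 4 were highest on replicate 1 and lowest on replicate 4, as were 10 of the 15 other genes, while 4.94% of 15131 complete features were. Taken singly, 25.1% of those features were highest on replicate 1 and 12.1% lowest on replicate 4. The choice of the members on their 24-hour ratios favours a lowest value on a 24-hour array, so their count is a description only. The mean ratio of the 15 genes was 0.21, -0.40 and -0.73 on replicates 1 to 3 and -1.12, -0.31 and -0.49 on replicates 4 to 6. The mean of Ms4a3, Lcn2 and Cd177 was 0.042, -0.90 and -1.43, then -2.10, -0.84 and -1.22.

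Of 6 measured transcription factor genes of granulocyte production 0 had this order, and 0 passed at either time by limma (also 0 at an unadjusted p under 0.05 at either time). Among all features 3.62% passed at 6 hours and 20.6% at 24 hours, or 26.6% and 40.5% without adjustment. Spi1, which encodes PU.1, had 0.13 at 6 hours and 0.15 at 24 hours, Cebpb 0.067 and 0.17, Cebpa 0.89 and 0.53, and Myb 0.10 and -0.10. Cebpd (-0.51 and -0.18) and Klf5 (-0.23 and -0.37) were below 0 at both times and highest on replicate 1. Of 5 measured genes for signals of neutrophil production and retention, 2 rose at 24 hours, where 12% of all features rose. Csf3, the gene of granulocyte colony-stimulating factor, had 1.76 and 0.79 at 6 hours, with no value on replicate 1, and 1.23, 1.10 and 1.43 at 24 hours. It rose at 24 hours (1.26 ± 0.21, adjusted p = 0.0195), and had 1.27 ± 0.26 at 6 hours (adjusted p = 0.0590). The cytokine gene Il1b rose at 24 hours (0.87 ± 0.23, adjusted p = 0.0429). Cxcl12, the chemokine gene that holds neutrophils in the marrow, had -0.73 ± 0.24 at 24 hours (adjusted p = 0.0721), with -0.88 and -0.59 in its 2 rows, and was highest on replicate 1 and lowest on replicate 4. Csf2 had -0.32 and Vcam1 0.47 at 24 hours, and neither passed.

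Relatives and binding partners of the 4 proteins were mixed. Epx, the eosinophil peroxidase gene and closest measured relative of Mpo by family, had -0.50 ± 0.17 at 6 hours and -0.52 ± 0.17 at 24 hours (adjusted p = 0.132 and 0.0707). Of the other MS4A genes, Ms4a6d had -0.77, Ms4a6b 0.44, Ms4a4b 0.79, Ms4a1 0.27 and Ms4a2 0.080 at 24 hours, and none passed. Pecam1, which encodes the adhesion partner of human CD177, had -0.47, and the lipocalin 2 receptor genes Slc22a17 and Lrp2 had 0.041 and 0.059.

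Markers of other cells moved with these arrays in part. Muscle markers had a mean ratio of 0.12, 0.60 and 1.17 on replicates 1 to 3 and of 0.91, 0.13 and 0.28 on replicates 4 to 6, and all 8 measured genes had means above 0 at both times. They were thus high on replicates 3 and 4, where Ms4a3, Lcn2 and Cd177 were low, although the Mpo mean was at its highest (-0.26) on replicate 3. On replicate 5 the muscle markers had only 0.13, where the members had -0.79 to -0.94. Cell cycle genes had means of 0.11, -0.17 and -0.56, then -0.37, -0.046 and -0.27, with 12 of 15 below 0 at 6 hours and 13 of 15 at 24 hours. By limma 0 of the 8 muscle genes passed (5 at an unadjusted p under 0.05 at 6 hours and 1 at 24 hours), and 0 of the 15 cell cycle genes did (0 and 2). Over all features 3.62% passed at 6 hours and 20.6% at 24 hours, with 26.6% and 40.5% at an unadjusted p under 0.05. Lyz2, a lysozyme gene that macrophages and neutrophils share, was highest on replicate 1 and lowest on replicate 4 (0.58 and -1.49), while the macrophage genes C1qa and C1qb had 0.16 and 0.096 at 24 hours. Monocyte and macrophage markers as a whole had a mean of -0.20 on replicate 4, B lineage markers -0.16 and erythroid markers 0.094. On replicate 1 these lists had 0.26, 0.32 and 0.105. The monocyte and macrophage mean was also -0.20 on replicate 2 and -0.21 on replicate 3. Whether these shifts contribute to the ratios of the members was not tested.

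**Figure D4:**
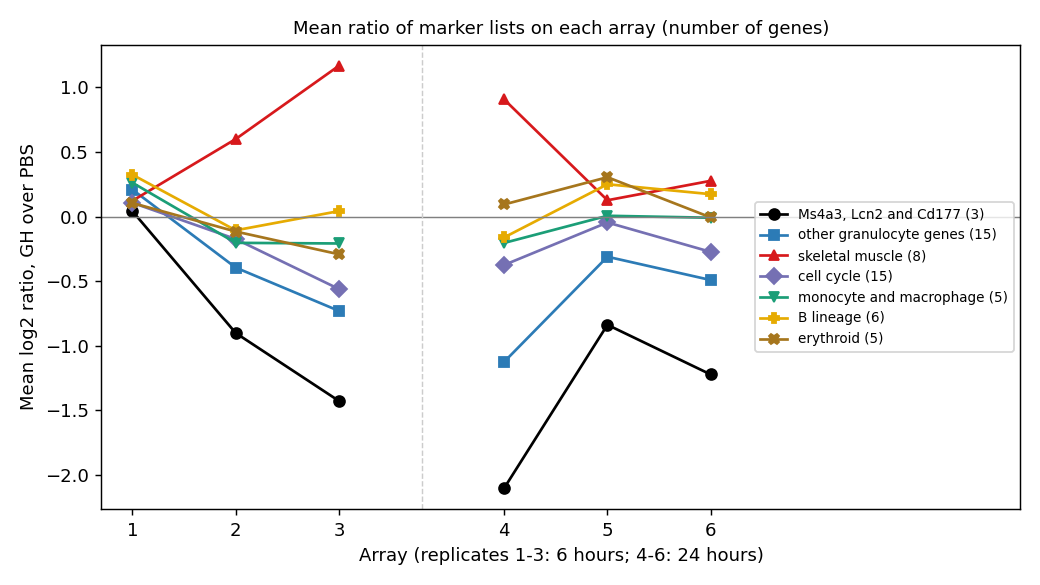
Mean log2 ratio of GH over PBS (vertical axis) of Ms4a3, Lcn2 and Cd177 and of 6 marker lists on each array (horizontal axis), with the number of genes in brackets and lines joining arrays of 1 time only to guide the eye. The 3 genes (black) were lowest on replicate 4 at -2.10 and near 0 on replicate 1 at 0.042, and muscle markers (red) were highest on replicate 3 at 1.17.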

How the data were processed

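Per the labels' protocols, RNA of bone was amplified before Cy5 (GH) or Cy3 (PBS) was coupled to it. The deposited values are log2 of linear ratios that the authors rounded to 2 decimals. The normalization and the extraction software are not given in the labels. Signal over background is unknown here, and precision is limited by the 6 arrays.

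Times and replicate numbers came from the labels. Of 21446 rows 11813 carried 1 symbol, and these were averaged per gene; the other rows stayed single. Each feature needed values from 2 or more arrays at both times (16678 had them). In limma 3.58.1 under R 4.3.3, lmFit and eBayes gave a mean for each time, with two-sided tests and Benjamini-Hochberg adjustment over all features at 0.05. The fit was tested on simulated data with values drawn independently for each feature. That test does not cover spread that the features of an array share. The p-values measure the spread between pools of animals on these arrays. Alternatives changed scaling, the row rule, missing values, spread model, weights, scan file prefix and replicates.

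Members and lists were chosen with earlier results of these data known. The text names the members, genes of the granulocyte lists past the threshold and up to 4 more per list with the smallest 24-hour p, up to 3 per list of other cells, and the 3 nearest genes per member. Row 3 of Mpo alone, the single rows of Ctsc, Cxcl12 and Mmp9, Lyz2, C1qa and C1qb were singled out after their values were seen. Cebpd and Klf5 were added so that every measured transcription factor gene is given. Promoters are from RefSeq.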

Additional observations from a re-analysis of the deposited data

Results flagged for a closer look

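Averaged over its rows, Mmp9 lay above 0 on all 3 arrays at 6 hours (0.062, 0.11 and 0.0064) and below 0 on all 3 at 24 hours (-0.38, -0.27 and -0.66), a difference of -0.50 between 24 and 6 hours on the log2 scale. Lrp2, which encodes the endocytic receptor megalin, lay as the average of its rows on the opposite sides, below 0 at 6 hours and above 0 at 24 hours, with a difference of 0.087. The test of the difference in limma gave an adjusted p of 0.982 for each, and 0 of 16678 features passed it (506 at an unadjusted p under 0.05).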

How the results depend on the processing

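The 6-hour and 24-hour means of Mpo (as the average of its rows), Ms4a3, Lcn2 and Cd177 were below 0 under every alternative run, 17 for Mpo and 18 for each of the others. At 24 hours this sign was close to fixed in advance, because the genes were chosen on those ratios and lay below 0 on every 24-hour array. Many alternatives, such as robust empirical Bayes or leaving out a 24-hour array, cannot change the 6-hour mean. The count of alternatives is therefore no measure of how firm the 6-hour sign is. Rows 2 and 3 of Mpo, taken singly, changed sign at 6 hours between alternatives (-0.098 to 0.15 and -0.77 to 0.097). The 6-hour calls changed with array weights, where Lcn2 (-1.23, adjusted p = 0.0218) and Mpo (-0.38, adjusted p = 0.0430) passed in limma, and for Lcn2 without replicate 1. With 1 replicate left out, the 6-hour mean ranged over -1.44 to -0.59 for Lcn2, -1.15 to -0.36 for Cd177, -0.90 to -0.35 for Ms4a3 and -0.44 to -0.35 for Mpo. With a term for the scan file prefix, which leaves replicate 5 alone to set the 24-hour mean, that mean was -0.79 for Lcn2 and for Cd177, -0.94 for Ms4a3 and -0.81 for Mpo. Over all features, 603 passed at 6 hours (486 higher, 117 lower), against 1782 after scaling to 1 median absolute deviation (1277 and 505), 1964 after quantile normalization (1354 and 610), 4736 with array weights (2662 and 2074), and 0 with the time fitted alone (4314 at an unadjusted p under 0.05 in limma). Leaving out 1 replicate gave 0 to 1501, and where it was 0 (replicates 2, 3 and 4) limma called 1923, 2018 and 3883 at an unadjusted p under 0.05. At 24 hours 3444 passed, against 32 with the prefix, 2261 with the time fitted alone and 0 to 4201 without 1 replicate (0 without replicate 6, with 4124 at an unadjusted p under 0.05 in limma). Among the 15 other granulocyte genes, the counts of which were added after seeing the data, 3 were lower at 6 hours with array weights, 1 after scaling or quantile normalization and 0 under the other alternatives. The cause of these moves was not tested. Mpo could not be given as 1 value with each row tested by itself. No paired analysis was possible because the 2 times share no replicate number, and GH and PBS were paired on the arrays themselves.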

Other observations

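Markers of stem and progenitor cells did not move as 1 group. Kit, the stem cell factor receptor gene, had -0.029, -1.69 and -1.06 at 6 hours and -2.32 and -1.94 on replicates 4 and 6, with no value on replicate 5. It fell at 24 hours by limma (-2.13 ± 0.39, SE, n = 2 arrays, adjusted p = 0.0231). Both of these 24-hour arrays have the other scan file prefix than the 6-hour arrays, so for Kit at 24 hours the time and the prefix cannot be told apart. Cd34 (0.82 ± 0.16, adjusted p = 0.0210) and Procr, the endothelial protein C receptor gene (0.75 ± 0.14, adjusted p = 0.0190), rose at 24 hours and were above 0 on all 6 arrays. Of the 6 measured genes of this list 1 fell and 2 rose, beside 8.62% and 12% of all features. Among lists of other cells, Cpa3, a mast cell carboxypeptidase gene, rose at 24 hours (0.53 ± 0.11, adjusted p = 0.0260), and Ms4a2, a subunit gene of the IgE receptor, had 0.080. Blnk of the B lineage (0.98, limma adjusted p = 0.0142), Cd3e of T cells (0.54, adjusted p = 0.0355) and Calcr, the calcitonin receptor gene of osteoclasts (1.17, adjusted p = 0.0264), also rose at 24 hours, and Blnk alone of these rose at 6 hours (0.94, adjusted p = 0.0381). Beside 12% of all features that rose at 24 hours, these were 1 of 6 measured B lineage genes and 1 of 3 osteoclast genes. Cpa3 was 1 of 3 in its list, and Cd3e was the only T or NK gene measured. The B lineage list had a 24-hour median of 0.028, with 3 of 6 genes below 0. Of the other osteoclast genes, Acp5 had 0.16 and Tnfrsf11a -0.12 at 24 hours. No measured gene of the monocyte, erythroid, megakaryocyte, osteoblast, chondrocyte or endothelial lists passed at either time by limma. At an unadjusted p under 0.05 limma called 0 to 1 genes per list, beside 26.6% (6 hours) and 40.5% (24 hours) of all features.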
